A study of Mus musculus with 6 samples.

Results

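Cultured tail tissue fibroblasts of C57BL/6 mice were profiled on Agilent 1-colour arrays, and the 2 arrays of the LH2 cKO_no.1 group (no.1 below) were compared with the 2 control arrays, 4 of the 6 arrays of the series. All of these cells, control cells included, were of the genotype LH2F/F CAG-Cre, that is, with a conditional allele of the lysyl hydroxylase 2 gene Plod2 and a Cre recombinase driven by the broadly active CAG promoter, and the labels call every sample LH2 cKO. Control cells were grown without tamoxifen. Cells of no.1 were treated with the drug for 24 h and stayed in medium that contained it. A further group of 2 arrays, LH2 cKO_no.2, had the same 24 h of tamoxifen but medium without it, and entered the fit as the other group. The comparison addresses what differed between cells given tamoxifen, which is meant to delete LH2, and cells that were not. Tamoxifen was not given to any cells without the conditional allele, and drug, deletion and culture time cannot be told apart. The names of the deposited files carry 0 h for control, 24 h for the first no.1 array and 48 h for the second, whereas the labels give 24 h for the no.1 pair. The labels name no separate animals or cultures behind the 2 arrays of a group, so p-values measure only how far these samples spread, which may be technical. In bulk RNA, fewer cells of a type and less RNA per cell cannot be told apart.

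The array carried probes for 45611 genes, counting probes without a gene symbol by their own name. Of these, 22909 were well above background (the scanner software's flag) on both control arrays or on both no.1 arrays, and with 145 genes so measured in LH2 cKO_no.2 alone, 23054 genes were tested. Lysyl hydroxylase 2 is an enzyme of the endoplasmic reticulum that hydroxylates lysines in the end regions of collagen chains. Lysyl oxidases later convert such lysines, outside the cell, into the reactive groups from which collagen crosslinks form, and the hydroxylated lysines give the more stable kind. Tail fibroblasts make much collagen and migrate in culture, and filopodia are the thin actin protrusions with which moving cells probe their surroundings.

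The no.1 arrays were brighter than the control arrays. Processed signal is spot brightness after background subtraction, in arbitrary units, and its 75th percentile stood at 34.1 and 33.7 in control and at 95.9 and 85.0 in no.1, while 44.2% to 45.7% of probes were well above background in control, compared with 53.3% and 53.5% in no.1. The E1A spike-ins, control RNAs added to each labelling, went the other way, with 50.3 and 49.3 in control and 37.3 and 34.3 in no.1. The control arrays differed from each other by a robust SD of 0.192 on the log2 scale and the no.1 arrays by 0.423. All arrays shared 1 slide, where control took row 1 and no.1 took row 2, and slide row and treatment cannot be told apart. No probe was saturated, and with 2 arrays a group the array number limits precision. Among fibroblast markers 19 of 22 were measured, but Lum, Fap and Dpp4 were not well above background on both arrays of either group. The summed level of the fibroblast list was 5436 and 5750 times the 75th percentile in control and 2338 and 2499 in no.1, with 4 of 19 members called higher and 10 lower, where 21.4% and 26.4% of all genes were. Summed levels are multiples of each array's own 75th percentile, which was larger in no.1, so a lower multiple need not mean less signal. Relative to the spike-ins, Vim (1.87), Col1a1 (1.76) and Fn1 (3.12) were among members called higher and Dcn (-1.84) among those called lower. There 81.7% of all genes were called higher and 1.93% lower. The brightest probe of the fibroblast list was S100a4, with signals of 121500 and 128000 in control and 104400 and 94810 in no.1. The summed levels of the keratinocyte, endothelial, leukocyte, lymphocyte, muscle, adipocyte, neural and mesothelial lists lay between 2.76 and 50.0 on every array. The pericyte and smooth muscle list summed to 626 and 646 in control and 898 and 513 in no.1, the tenocyte list to 103 and 104 against 38.5 and 33.5, and the chondrocyte and osteoblast list to 36.2 and 35.1 against 37.7 and 130.3. Single genes make up most of these sums. Thbs4 gave signals of 2804 and 2781 in control and 5.45 and 5.59 in no.1, while 2 of 8 tested tenocyte markers were called higher and 3 lower, and Spp1 gave 1031 and 972 against 3441 and 10820. The part of other cell types in the results was not tested.

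Almost every second gene differed between the groups. Levels are given on the log2 scale after subtracting each array's own 75th percentile, and a gene is called where limma's Benjamini-Hochberg adjusted p lies under 0.05. By that rule 11025 of 23054 genes (47.8%) were called, 4941 higher in no.1 (21.4%) and 6084 lower (26.4%), and all 11025 lay on the same side in all 4 pairs of a no.1 and a control array. With both control arrays averaged into 1 sample, 4851 genes (21.0%) were called, 2262 higher (9.81%) and 2589 lower (11.2%), and 4808 of them were among the calls above. Without control array 1 the counts were 2624 higher and 2764 lower, without control array 2 they were 2268 and 2732, and without no.1 array 1 they were 2595 and 3222.

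The split into higher and lower depended on the reference to which the arrays were scaled. The 75th percentile relative to the spike-in signal on the no.1 arrays was above the mean of the control arrays by a factor of 3.78 and 3.64. Scaled to the spike-ins, 83.7% of genes were called, 18846 higher (81.7%) and 446 lower (1.93%), and the median log2 fold change over all genes moved from -0.12 to 1.77. Scaled to the median probe the split was 7573 higher and 3294 lower. Going from the 75th percentile to the spike-ins adds the same amount to the log2 fold change of every gene. All 4941 genes called higher after 75th-percentile scaling were also called higher relative to the spike-ins, which follows from this upward shift and is no independent check. Of the 12029 genes not called after 75th-percentile scaling, 11332 were called higher relative to the spike-ins. Of the 6084 called lower, 446 were called lower by both scalings, 3065 were not called relative to the spike-ins, and 2573 were called higher there. A gene described as lower was therefore lower relative to the other genes of its array, and its value relative to the spike-ins is given where it changes sign or loses the call.

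**Figure D1:**
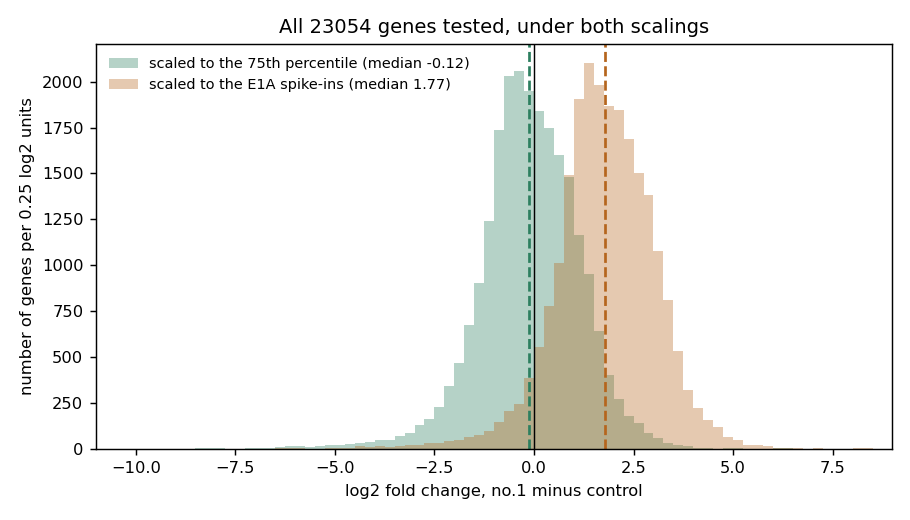
Number of genes (y axis, per 0.25 log2 units) by log2 fold change of no.1 against control (x axis), for all 23054 genes tested, scaled to the 75th percentile (green) or to the E1A spike-ins (brown), with dashed lines at the medians. The 2 distributions differ by a shift that is the same for all genes, with medians of -0.12 and 1.77.

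The size of the falls was larger than that of the rises. Among genes well above background on all 4 arrays, 373 were called at least 4-fold higher and 875 at least 4-fold lower, and 12 and 98 at least 16-fold. At 32-fold or more there were 5 and 43. Relative to the spike-ins the 16-fold counts were 310 higher and 24 lower, so the order of the 2 directions also turned with the scaling. Medians also differed by brightness. Genes measured on all 4 arrays were divided by mean level into 4 classes of like size, and the dimmest and brightest classes had median log2 fold changes of -0.57 and -0.35, against 0.02 and 0.10 in the middle classes. With spike-in scaling, which shifts all genes by the same amount, they were at 1.32 and 1.54, against 1.91 and 1.99. With normexp background correction the medians were -0.52, 0.002, 0.50 and 0.32, from the dimmest class to the brightest.

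Some gene lists had members called mostly in 1 direction, and others were mixed. Of 36 lists of genes with related roles, those of mitosis, DNA replication, nuclear pore and RNA-binding proteins, and cholesterol synthesis had the largest shares of members called higher. Small leucine-rich proteoglycans, crosslinking enzymes, elastic fibre genes and MHC class I genes had the largest shares called lower. Relative to the spike-ins 23 of the 36 list medians changed sign, and after scaling to the median probe 6 did.

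**Figure D2:**
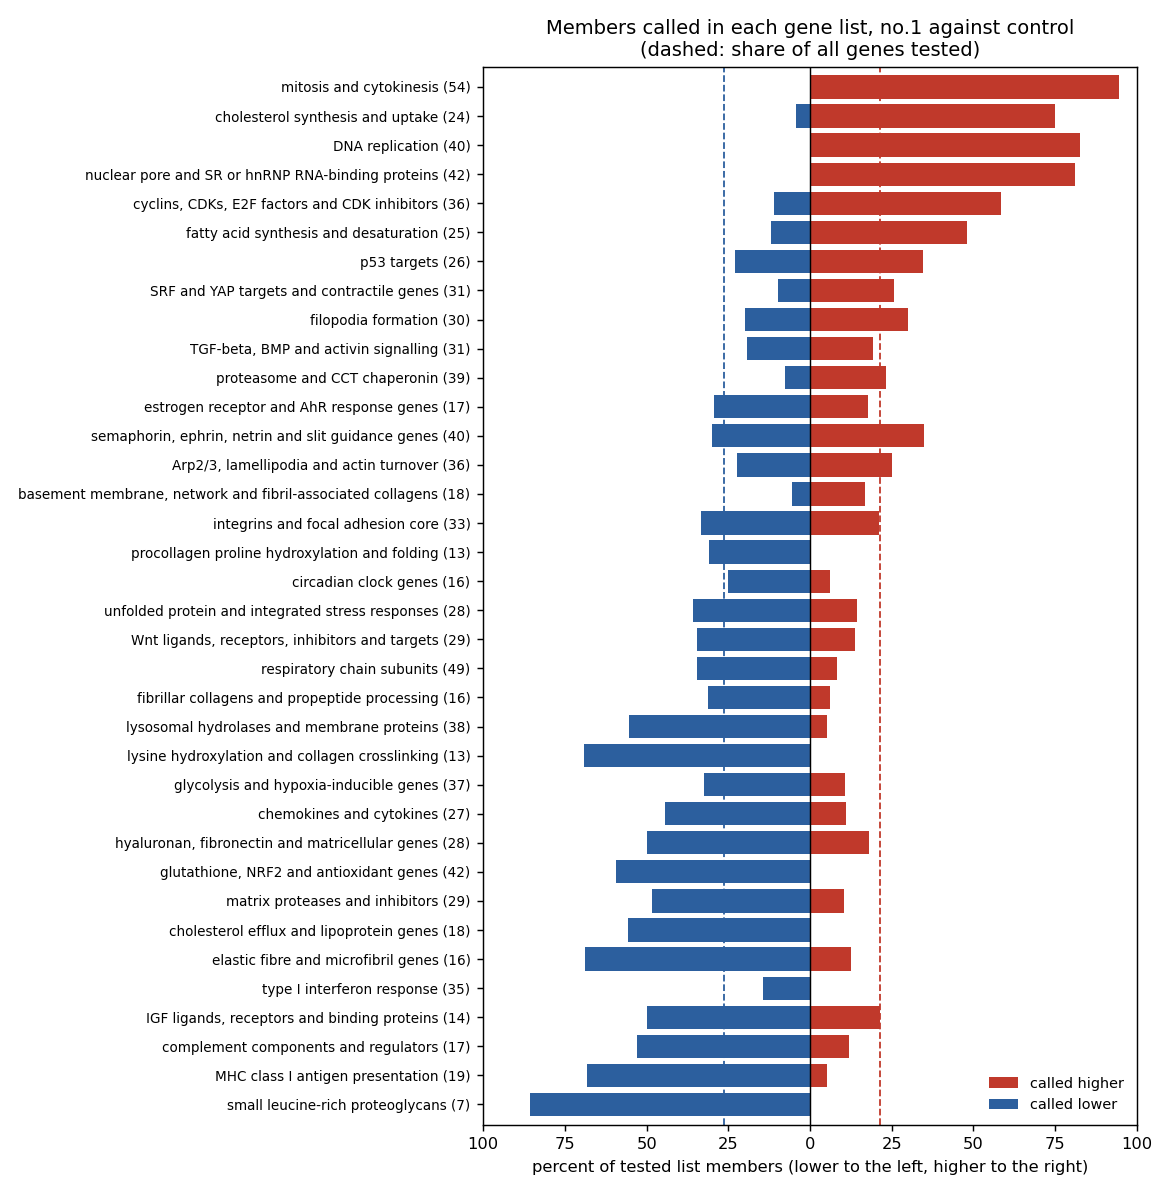
Percent of tested members called lower (blue, to the left) or higher (red, to the right) in no.1 than in control after 75th-percentile scaling, for 36 gene lists ordered by median log2 fold change, with the number tested in brackets. Dashed lines mark the shares over all genes tested, 26.4% lower and 21.4% higher, and the mitosis list reaches 94.4% higher and the small leucine-rich proteoglycans 85.7% lower.

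Plod2 itself was lower in no.1. Its single probe read 42.1 and 34.9 in control and 31.8 and 17.1 in no.1, so the second no.1 array was the lowest and the groups did not overlap. After 75th-percentile scaling Plod2 fell by 2.13 on the log2 scale (SE 0.34, n = 2 arrays a group, adjusted p = 0.00612 in limma), or 4.38-fold. Set against the spike-ins, Plod2 stood at -0.24 and did not pass (adjusted p = 0.501). The sources used here do not place the probe inside or outside the deleted exons, and its signal therefore does not check the deletion.

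Both other lysyl hydroxylases and their partner proteins were also lower. Plod1, which hydroxylates lysines within the collagen helix, gave signals of 300.4 and 311.0 in control and 300.9 and 338.1 in no.1, which overlap before scaling, and stood at -1.35 after it (SE 0.21, adjusted p = 0.00545). Plod3, which also adds sugars to hydroxylysine, was at -1.59 (SE 0.19, adjusted p = 0.00326), and P3h4, a partner of lysyl hydroxylase 1, at -1.65 (SE 0.19, adjusted p = 0.00294). With spike-in scaling Plod1, Plod3 and P3h4 were at 0.54, 0.30 and 0.24, and none of them was called there. Fkbp10, a foldase needed for the activity of lysyl hydroxylase 2, was at -0.67 (adjusted p = 0.0323), and 1.22 relative to the spike-ins. The other called members, P3h3 and the glycosyltransferase Colgalt1, were at -0.76 and -0.74, and at 1.13 and 1.15 relative to the spike-ins. With the control arrays averaged, Fkbp10, P3h3 and Colgalt1 were not called (adjusted p = 0.165, 0.139 and 0.145).

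Lox, the main lysyl oxidase, showed the largest fall of the crosslinking list. Its signal was 4066 and 3838 in control and 1973 and 1746 in no.1, both no.1 arrays below both control arrays even before scaling. The log2 fold change was -2.50 (SE 0.29, adjusted p = 0.00316), and -0.61 relative to the spike-ins (adjusted p = 0.222). Loxl1 was at -1.09 (adjusted p = 0.00823), and 0.80 relative to the spike-ins, and lost the call on averaging the control arrays (adjusted p = 0.0586). Loxl2, Loxl3 and Loxl4 were not called, with log2 fold changes of -0.65, 0.37 and 0.02, and neither was the transglutaminase Tgm2 at 0.73, whose signal was 1192 on the first no.1 array and 483 on the second. In all, 9 of 13 tested members of the list were called lower (69.2%, against 26.4% of all genes) and none higher, with a median of -0.76. Relative to the spike-ins the median was 1.13, against 1.77 over all genes, with 8 members called higher and none lower.

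**Figure D3:**
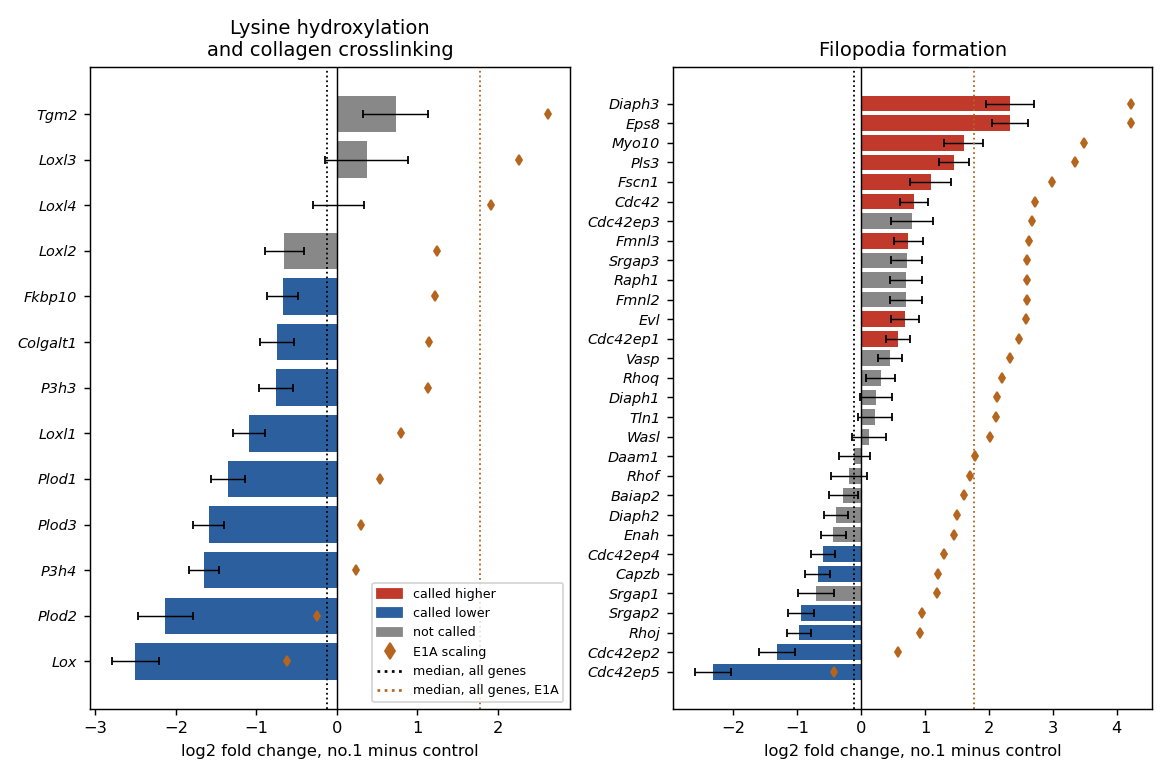
Log2 fold change of no.1 against control (x axis) for each tested member of the crosslinking list (left) and the filopodia list (right), as bars with the SE of the limma fit and coloured by call, and relative to the E1A spike-ins as diamonds. Dotted lines mark the medians over all genes, -0.12 and 1.77, and 9 of 13 crosslinking members were called lower while the filopodia list holds 9 called higher and 6 lower.

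Genes of filopodia formation went in both directions. Of 30 tested members 9 rose (30.0%, against 21.4% of all genes) and 6 were lower (20%, against 26.4%), with a median of 0.27, and 2.16 relative to the spike-ins. The largest rise was that of the formin Diaph3, which elongates actin filaments, with signals of 33.2 and 30.4 in control and 606 and 298 in no.1 (2.33, SE 0.37, adjusted p = 0.00589). Eps8, an actin capping and bundling protein, rose from 82.5 and 85.1 to 915 and 1375 (2.33, SE 0.28, adjusted p = 0.00341), with a second probe at 0.54. Myo10, the motor that travels to filopodial tips, gave 49.5 and 60.0 in control and 568 and 344 in no.1, a rise of 1.61 (SE 0.30, adjusted p = 0.00901), which did not pass without no.1 array 1, and its second probe was at 0.56. The actin bundlers Pls3 and Fscn1 rose by 1.45 (SE 0.24, adjusted p = 0.00635) and 1.09 (SE 0.32, adjusted p = 0.0346), the GTPase gene Cdc42 by 0.83 and the formin gene Fmnl3 by 0.74. Evl and Cdc42ep1 rose by 0.69 and 0.58. With the control arrays averaged, Fscn1, Cdc42, Fmnl3, Evl and Cdc42ep1 were no longer called (adjusted p between 0.118 and 0.209), and none of these passed without no.1 array 1.

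The lower members were mainly effectors and regulators of the GTPases. Cdc42ep5, a Cdc42 effector, gave 588 and 632 in control and 270 and 390 in no.1 (-2.32, SE 0.29, adjusted p = 0.00344), and stood at -0.43 relative to the spike-ins, not called. Cdc42ep2 was at -1.32, the Cdc42-like GTPase Rhoj at -0.97, Srgap2 at -0.94, the capping protein Capzb at -0.68 and Cdc42ep4 at -0.59, and relative to the spike-ins all of these were above 0, at 0.57, 0.92, 0.95, 1.21 and 1.30. None of these was called with the control arrays averaged. The tip proteins Vasp and Enah were not called, at 0.45 and -0.43. The probes of Srgap2, Diaph1 and Fmnl2 disagreed in sign, from -0.94 to 0.65 for Srgap2, -0.48 to 0.23 for Diaph1 and -0.44 to 0.70 for Fmnl2.

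Related actin lists were near the background. Of 36 genes of the Arp2/3 complex, lamellipodia and actin turnover 9 rose (25%) and 8 were lower (22.2%), with a median of -0.11 that was above 0 under 5 alternatives, among them 0.32 with the median probe and 1.78 with the spike-ins. Coro1a, a coronin of actin turnover, was at -1.90 (adjusted p = 0.00449) and Limk1, a kinase that inhibits cofilin, at -1.37 (adjusted p = 0.00551), and relative to the spike-ins they were at -0.006 and 0.52. Of 33 integrin and focal adhesion genes 7 rose (21.2%) and 11 were lower (33.3%), against 21.4% and 26.4% of all genes. Itgb3, a subunit of a vitronectin receptor, fell from signals of 100.5 and 106.6 to 22.3 and 30.7 (-3.40, SE 0.32, adjusted p = 0.00195), and fell relative to the spike-ins too, by 1.51 (adjusted p = 0.00234). Itgav, the partner chain, went from 531 and 502 to 4137 and 1968 (1.05, adjusted p = 0.0409), a call lost on averaging the control arrays (adjusted p = 0.132). Lims2, a focal adhesion adaptor, was at -2.78 (adjusted p = 0.00615), and -0.89 relative to the spike-ins, where it did not pass.

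Among 31 targets of the factors SRF and YAP and contractile genes, 8 rose (25.8%) and 3 were lower (9.68%). Of all genes 21.4% were called higher, close to the share of the list, and 26.4% lower. Ankrd1, a YAP target that encodes a stress-induced nuclear and sarcomeric protein, gave 13.4 and 14.3 in control and 1933 and 910 in no.1. It rose by 5.17 (SE 0.34, adjusted p = 0.000799). Filip1l went from 98.1 and 93.9 to 1775 and 1410 (2.63, SE 0.22, adjusted p = 0.00148), and Nexn, an actin-binding protein of muscle, from 24.8 and 21.6 to 341 and 278 (2.32, SE 0.19, adjusted p = 0.00151). In contrast Mylk, the myosin light chain kinase, was at -1.81 (adjusted p = 0.00524), and 0.08 relative to the spike-ins. The list median was 0.32, but 0.56 on the first no.1 array and -0.18 on the second.

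The fibrillar collagen chains themselves differed little from the background. Of 16 members of the fibrillar collagen and propeptide processing list 1 rose (6.25%) and 5 were lower (31.2%), against 21.4% and 26.4% of all genes. The list median was -0.54 (1.35 relative to the spike-ins), and 13 of the 16 members were well above background on all 4 arrays. Col1a1 and Col1a2, the chains of type I collagen, were not called, at -0.13 (SE 0.19) and -0.45 (SE 0.20), and neither was Col3a1 at -1.28 (SE 0.56). Relative to the spike-ins Col1a1 (1.76) and Col1a2 (1.44) were called higher, as were 81.7% of all genes, and Col3a1 (0.61) was not called. A minor chain stood apart. Col11a1 gave 11.0 and 9.19 in control and 162 and 184 in no.1 (2.69, SE 0.57, adjusted p = 0.0127). Col5a3 gave 504 and 499 in control and 110 and 250 in no.1 (-3.01, SE 0.65, adjusted p = 0.0134), and -1.12 relative to the spike-ins, not called. Without no.1 array 1 neither Col5a3 nor Col11a1 passed, and Col11a1 also did not without no.1 array 2. The enzyme that trims the amino end of procollagen changed far more. Adamts2 fell from signals of 672 and 724 to 22.3 and 16.6 (-6.59, SE 0.41, adjusted p = 0.00067), and was at -4.70 relative to the spike-ins (adjusted p = 0.000379).

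Among 13 prolyl hydroxylases and collagen chaperones 4 were lower (30.8%, against 26.4% of all genes) and none rose, with a median of -0.31. That median was 1.58 relative to the spike-ins, 0.12 with the median probe and 0.14 with normexp background correction. All 4, Ppib, Crtap, Serpinh1 and P4hb, lost the call with the control arrays averaged and were called higher relative to the spike-ins. Basement membrane and fibril-associated collagens had 3 of 18 members higher (16.7%, against 21.4% of all genes) and 1 lower (5.56%, against 26.4%). Their median was -0.15, which was 0.28 with the median probe and 1.74 relative to the spike-ins. Of these 18 members 13 were well above background on all 4 arrays. Col4a6 rose by 1.31 (adjusted p = 0.00687), from 17.8 and 18.0 to 146 and 95.4. The 2 probes of Col6a3 disagreed, at 1.08 and -0.63.

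Small leucine-rich proteoglycans, which bind collagen fibrils and regulate their width, had the lowest median of the matrix lists. Of 7 tested members 6 were lower (85.7%, against 26.4%) and none rose, with a median of -2.55, and of -0.66 relative to the spike-ins against 1.77 over all genes. Another 8 members, Lum among them, were not tested. Prelp, which anchors collagen to basement membranes, gave 944 and 918 in control and 9.66 and 11.7 in no.1 (-7.87, SE 0.83, adjusted p = 0.00261). Dcn, decorin, fell from 734 and 757 to 122 and 185 (-3.73, SE 0.44, adjusted p = 0.00318), and Fmod, fibromodulin, from 54.6 and 54.5 to 7.91 and 10.4 (-4, SE 0.70, adjusted p = 0.00763). All 3 were also called lower relative to the spike-ins, at -5.98, -1.84 and -2.11, and Fmod did not pass without no.1 array 1. Bgn, biglycan, was the list member on the higher side, at 0.45 (SE 0.27), and was not called. Optc, opticin, belongs to the same family but not to the list, and it was called higher, with the bound given among the genes measured in 1 group.

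Elastic fibre and microfibril genes had 11 of 16 members lower (68.8%, against 26.4% of all genes) and 2 higher (12.5%, against 21.4%). Their median was -1.25 (0.64 relative to the spike-ins). Mfap5, a microfibril glycoprotein, gave 4466 and 4847 in control and 1064 and 1090 in no.1 (-3.52, SE 0.38, adjusted p = 0.00274), and Emilin2 1148 and 1273 against 236 and 371 (-3.44, SE 0.37, adjusted p = 0.00274). Both also fell relative to the spike-ins, by 1.63 and 1.55. Efemp2, which recruits lysyl oxidase to elastic fibres, was at -2.35 (SE 0.19, adjusted p = 0.00144), and -0.46 relative to the spike-ins, not called. Ltbp1, which stores latent TGF-beta in the matrix, moved the other way, from 252 and 231 to 2557 and 2067 (1.84, SE 0.29, adjusted p = 0.00572).

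Hyaluronan, fibronectin and matricellular genes showed large moves in both directions. Of 28 members 14 were lower (50.0%, against 26.4% of all genes) and 5 rose (17.9%, against 21.4%). Of the 28, 21 were well above background on all 4 arrays. Relative to the spike-ins 7 were called lower as well (25%, against 1.93% of all genes). Mgp, matrix Gla protein, an inhibitor of calcification, gave 644 and 685 in control and 19410 and 18860 in no.1, a rise of 3.44 (SE 0.27, adjusted p = 0.00136). Spon2, a secreted matrix protein, fell from 624 and 681 to 11.4 and 36.6 (-6.41, SE 0.60, adjusted p = 0.00191), Cemip, a hyaluronan-degrading protein, from 1251 and 1190 to 100.9 and 121 (-4.88, SE 0.61, adjusted p = 0.00354), and Tnxb, tenascin X, from 110.0 and 146 to 19.9 and 26.2 (-3.89, SE 0.31, adjusted p = 0.00142). Ccn5 gave 3896 and 4141 in control, 106 on the first no.1 array and 599 on the second (-5.41, SE 0.79, adjusted p = 0.00489). Matrix proteases and their inhibitors had 14 of 29 members lower (48.3%) and 3 higher (10.3%), and 24 of the 29 were well above background on all 4 arrays. Mmp3, stromelysin, was at -3.02 (adjusted p = 0.00802) and Timp3, an inhibitor bound to the matrix, at -2.61 (adjusted p = 0.00183), and neither was called relative to the spike-ins (-1.13 and -0.72). Plau, the urokinase gene, was at 1.25 (adjusted p = 0.0122), a call lost on averaging the control arrays (adjusted p = 0.0618).

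Genes of cell division rose together. In the mitosis and cytokinesis list 51 of 54 members rose (94.4%, against 21.4% of all genes) and none was called lower, with a median of 2.52. Of the 54, 48 were well above background on all 4 arrays, and the values of the others draw on dim signals. With the control arrays averaged 50 rose. Kif23, a kinesin of the cytokinetic bridge, gave 8.27 and 11.0 in control and 597 and 302 in no.1, a rise of 4.06 (SE 0.32, adjusted p = 0.00133). Mki67, the proliferation antigen that coats mitotic chromosomes, went from 58.0 and 50.5 to 2228 and 1390 (3.61, SE 0.34, adjusted p = 0.00204), and Ect2, the exchange factor that starts the cleavage furrow, from 17.2 and 23.6 to 772 and 395 (3.36, SE 0.32, adjusted p = 0.00206). Mad2l1, a spindle checkpoint protein, gave 45.0 and 42.6 against 1778 and 754 (3.31, SE 0.36, adjusted p = 0.00273). Every one of these was higher on the first no.1 array than on the second, and on both far above control.

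In the DNA replication list 33 of 40 members rose (82.5%) and none was lower, with a median of 1.59. Pola1, the catalytic subunit of the polymerase that starts new strands, gave 20.6 and 15.5 in control and 471 and 285 in no.1 (2.95, SE 0.31, adjusted p = 0.00269). Orc1, which marks origins, went from 12.8 and 10.9 to 300 and 158 (2.78, SE 0.32, adjusted p = 0.00313), and Dbf4, the activator of the origin-firing kinase, from 7.64 and 10.1 to 232 and 111 (2.77, SE 0.34, adjusted p = 0.00337). With the control arrays averaged 24 of the 40 rose. Among 36 cyclins, CDKs, E2F factors and CDK inhibitors 21 rose (58.3%, against 21.4% of all genes) and 4 were lower (11.1%, against 26.4%). Ccna2, cyclin A2, gave 58.5 and 61.8 in control and 4574 and 1802 in no.1 (4.16, SE 0.40, adjusted p = 0.00204), and Foxm1, a transcription factor of late cell cycle genes, 84.3 and 88.5 against 2573 and 1313 (2.998, SE 0.29, adjusted p = 0.00215). The inhibitors of the Ink4 locus lay on the other side. Cdkn2a gave 7925 and 8310 in control and 2522 and 3421 in no.1 (-2.88, SE 0.30, adjusted p = 0.00259), and Cdkn2b 549 and 578 against 262 and 289 (-2.45, SE 0.36, adjusted p = 0.00489), and relative to the spike-ins they were at -0.99 and -0.56 and did not pass. The 2 probes of E2f7 disagreed, at 2.99 and -0.06.

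The promoters of 2 mitotic genes are shown because the list moved as a block. Late cell cycle genes are known for CCAAT boxes, bound by NF-Y, and for the CHR element, bound by the MuvB complexes. The windows are 200 bases before the transcription start, from RefSeq on GRCm38.p6, read 5′ to 3′ on the strand of the gene, with the letters CCAAT and TTTGAA in capitals on either strand. Mki67 lies at chr7:135716380-135716579 and Ect2 at chr3:27153879-27154078, both on the minus strand.
Mki67: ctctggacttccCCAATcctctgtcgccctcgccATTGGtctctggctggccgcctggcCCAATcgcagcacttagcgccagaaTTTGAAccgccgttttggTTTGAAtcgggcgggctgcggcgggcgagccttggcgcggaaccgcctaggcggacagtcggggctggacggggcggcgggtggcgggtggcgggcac
Ect2: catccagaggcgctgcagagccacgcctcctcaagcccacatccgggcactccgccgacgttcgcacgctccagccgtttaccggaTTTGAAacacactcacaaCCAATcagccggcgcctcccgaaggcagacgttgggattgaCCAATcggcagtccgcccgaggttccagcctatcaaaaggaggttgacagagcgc
Mki67 held 3 CCAAT matches, 188, 166 and 141 bases before the start, and TTTGAA at 116 and 98 bases. Ect2 held CCAAT at 96 and 55 bases and TTTGAA at 114 bases. Over 250 bases before the start, 32 of 48 mitosis genes with a window held CCAAT (66.7%) and 18 held TTTGAA (37.5%), against 34.5% and 16.3% of 27025 genes. Matches of different motifs may overlap, the first window listed for a gene was taken, and a match is no evidence of binding.

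Nuclear pore genes and RNA-binding proteins of splicing rose with the division genes. Of 42 members 34 rose (81.0%) and none was lower, with a median of 1.37, and 20 rose with the control arrays averaged. Nup205, a scaffold subunit of the pore, gave 97.2 and 95.2 in control and 1958 and 1282 in no.1 (2.63, SE 0.22, adjusted p = 0.00151), and Nup160 8.94 and 10.9 against 210.0 and 110.3 (2.53, SE 0.30, adjusted p = 0.00326). Srsf3, a splicing regulator, went from 192 and 201 to 2722 and 1753 (2.06, SE 0.23, adjusted p = 0.00283). Among p53 targets 9 of 26 rose (34.6%, against 21.4% of all genes) and 6 were lower (23.1%, against 26.4%), and with the control arrays averaged 1 rose and 2 were lower. Gdf15, a secreted stress cytokine, fell from 762 and 826 to 108 and 116 (-4.24, SE 0.39, adjusted p = 0.00186), and by 2.35 relative to the spike-ins (adjusted p = 0.000483). Ccng1, cyclin G1, was at 1.25 (adjusted p = 0.0136), a call lost on averaging the control arrays (adjusted p = 0.0652).

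Cholesterol synthesis was the metabolic pathway with the largest share of rises. Of 24 genes of synthesis and uptake 18 rose (75%, against 21.4% of all genes) and 1 was lower (4.17%, against 26.4%). The median was 1.70, and 15 rose with the control arrays averaged. Idi1, which isomerises the isoprene unit, gave 13.1 and 13.7 in control and 1105 and 866 in no.1, a rise of 4.78 (SE 0.38, adjusted p = 0.00133). Msmo1, a demethylating oxidase late in the pathway, went from 149 and 149 to 4122 and 2954 (3.14, SE 0.42, adjusted p = 0.00402), and Hmgcs1, which makes the precursor of mevalonate, from 137 and 130 to 2989 and 3045 (3.08, SE 0.40, adjusted p = 0.00374). The 2 no.1 arrays were close for these genes, and the list median was 1.65 on the first and 1.87 on the second. Ebp, a sterol isomerase, was at -0.74 (adjusted p = 0.0233), and 1.15 relative to the spike-ins. Ebp was not called with the control arrays averaged.

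The windows of Idi1 and Hmgcs1 are shown for the same reason. Sterol genes are known for sterol regulatory elements, bound by SREBP, which act with NF-Y at nearby CCAAT boxes. The letters CCAAT and TCACNCCAC are in capitals on either strand, over 200 bases before the start on GRCm38.p6 (RefSeq, plus strand), at chr13:8885406-8885605 for Idi1 and chr13:119690151-119690350 for Hmgcs1.
Idi1: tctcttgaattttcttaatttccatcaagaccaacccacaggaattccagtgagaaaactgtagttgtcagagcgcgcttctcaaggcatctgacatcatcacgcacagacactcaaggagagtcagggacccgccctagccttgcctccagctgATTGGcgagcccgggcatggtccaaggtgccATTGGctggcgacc
Hmgcs1: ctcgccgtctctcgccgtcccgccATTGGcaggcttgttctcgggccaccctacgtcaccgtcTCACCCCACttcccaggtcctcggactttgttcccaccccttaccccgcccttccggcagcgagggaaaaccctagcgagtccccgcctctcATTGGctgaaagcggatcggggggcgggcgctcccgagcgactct
Idi1 held CCAAT, on the reverse strand, at 45 and 14 bases before the start. Hmgcs1 held it at 176 and 45 bases and TCACNCCAC at 137 bases. Of 16 list genes with a window of 250 bases, 15 held CCAAT (93.8%, against 34.5% of 27025 genes) and 1 held TCACNCCAC (6.25%, against 1.04%).

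Fatty acid synthesis and desaturation followed in part. Of 25 members 12 were higher (48.0%, against 21.4% of all genes) and 3 lower (12%, against 26.4%), with a median of 0.63. Scd2, a desaturase, gave 516 and 530 in control and 8312 and 6572 in no.1 (2.41, SE 0.32, adjusted p = 0.00397), and the elongase gene Elovl6 49.7 and 49.8 against 617 and 464 (2.01, SE 0.20, adjusted p = 0.00222). Acacb, the acetyl-CoA carboxylase of mitochondria, was at -1.92 (adjusted p = 0.0102), and -0.02 relative to the spike-ins. Genes of cholesterol efflux and lipoproteins lay on the other side, with 10 of 18 lower (55.6%) and none higher, a median of -1.12, and 0.77 relative to the spike-ins. Apod, apolipoprotein D, gave 3146 and 3344 in control, 38.3 on the first no.1 array and 361 on the second (-6.20, SE 1.36, adjusted p = 0.014), and did not pass without the first. The efflux transporters Abcg1 and Abca1 were at -2.69 (adjusted p = 0.00654) and -2.49 (adjusted p = 0.012), and at -0.80 and -0.60 relative to the spike-ins, not called. Neither Acacb nor Abca1 passed without no.1 array 1.

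Several secreted immune proteins were among the 15 largest falls of genes measured on all 4 arrays. Of 17 complement components and regulators 9 were lower (52.9%, against 26.4% of all genes) and 2 rose (11.8%, against 21.4%). The median was -1.73, and 5 were called lower relative to the spike-ins too (29.4%, against 1.93% of all genes). Serping1, the C1 inhibitor, gave 1077 and 1060 in control and 8.87 and 8.81 in no.1 (-8.33, SE 0.62, adjusted p = 0.00113). C2 fell from 2284 and 2217 to 18.8 and 30.5 (-7.97, SE 0.76, adjusted p = 0.00205), and Cfb, factor B, from 2833 and 2879 to 37.3 and 119 (-6.83, SE 0.84, adjusted p = 0.00343). Rarres2, which encodes the chemoattractant chemerin and was kept in this list, fell from 1289 and 1348 to 6.22 and 11.5 (-8.70, SE 0.37, adjusted p = 0.000352). Among 27 chemokines and cytokines 12 were lower (44.4%) and 3 rose (11.1%), and 21 of the 27 were well above background on all 4 arrays. Ccl8 fell from 9769 and 10270 to 75.6 and 126 (-8.10, SE 0.61, adjusted p = 0.00112), and the scavenging receptor gene Ackr3 from 788 and 813 to 22.4 and 54.0 (-5.94, SE 0.54, adjusted p = 0.00179). Cx3cl1, a membrane-bound chemokine, rose from 100.1 and 120 to 2222 and 2065 (2.88, SE 0.28, adjusted p = 0.0022). Ccl5 gave 8591 and 8421 in control, 1376 on the first no.1 array and 4841 on the second (-3.13, adjusted p = 0.00989), and was at -1.24 relative to the spike-ins, not called.

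The 2 no.1 arrays parted on interferon-induced genes. In the type I interferon response list all 35 tested members were lower on the first no.1 array than on the second, against 48.0% of all genes tested. On the first array 34 of the 35 lay below both control arrays, with a median of -2.92 against the control mean. On the second 15 lay below both and 18 above both, with a median of 0.06. Ifit3, which is induced by interferon and restrains viral RNA, gave 3949 and 4137 in control, 279 on the first no.1 array and 6648 on the second, a log2 difference of -4.75 between the no.1 arrays. Ifit3b gave 1068 and 1074, 77.3 and 2180. Rsad2, the antiviral protein viperin, gave 274 and 277, 62.5 and 839. For Ifit3, Ifit3b and Rsad2 the no.1 values lay on either side of control, and the comparison with control did not call them (adjusted p = 0.119, 0.154 and 0.262). In the whole list 5 members were called lower (14.3%, against 26.4%) and none higher. Zbp1, a sensor of left-handed nucleic acids, was among them, with 2063 and 2282 in control and 26.6 and 569 in no.1 (-5.55, SE 1.37, adjusted p = 0.0197), as was Ifi27l2a (-3.17, SE 0.53, adjusted p = 0.00668), whose other probe was at -0.89. Relative to the spike-ins Ifi27l2a was at -1.27 and not called (adjusted p = 0.078). With the control arrays averaged Ifi27l2a was still called (adjusted p = 0.0293) and Zbp1 was not (adjusted p = 0.0578).

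The window of Ifit3 is shown because this gene parts the 2 arrays. Interferon-induced promoters are known for interferon-stimulated response elements, bound by STAT and IRF complexes. The core searched is GAAA, 2 bases of any kind and GAAA again, on either strand, and its matches, here on the reverse strand, are in capitals over 200 bases before the start (RefSeq, GRCm38.p6, chr19:34583329-34583528, plus strand).
Ifit3: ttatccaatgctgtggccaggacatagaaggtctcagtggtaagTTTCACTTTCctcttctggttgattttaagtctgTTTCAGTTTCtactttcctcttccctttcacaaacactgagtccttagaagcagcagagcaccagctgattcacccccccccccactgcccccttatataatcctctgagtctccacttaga
The matches begin 156 and 122 bases before the start. Among 27 interferon list genes with a window of 250 bases 13 held the motif (48.1%), against 3.04% of 27025 genes.

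**Figure D4:**
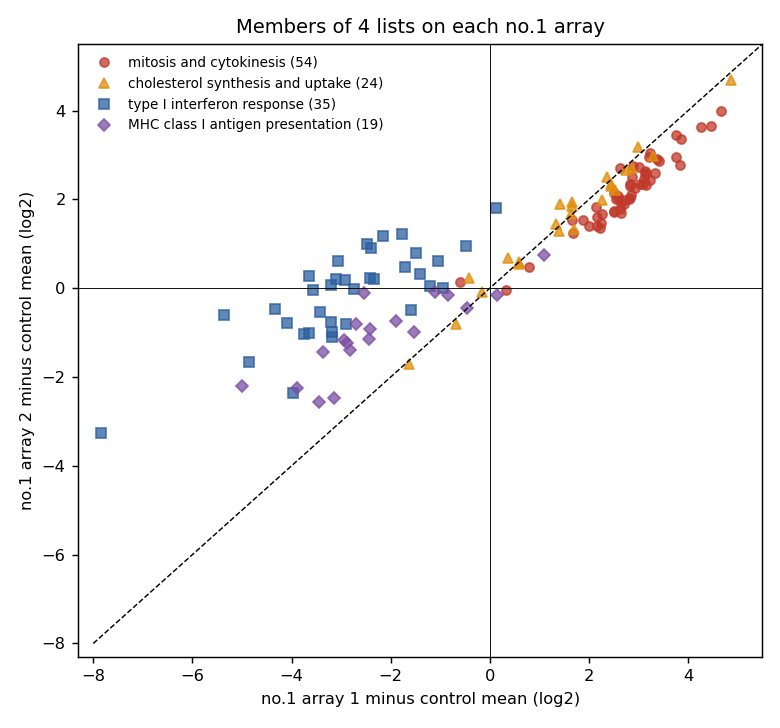
Log2 difference from the control mean on the first no.1 array (x axis) and on the second (y axis), 1 point per tested gene of 4 lists, with a dashed line where both are equal. Cholesterol genes lie on both sides of the line (11 of 24 lower on the first array, median difference 0.06). Mitosis genes lie mostly below it (2 of 54 lower on the first array, median difference 0.57). All 35 interferon genes lie above it, with medians of -2.92 on the first array and 0.06 on the second.

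MHC class I genes fell on both arrays, further on the first. Of 19 members 13 were lower (68.4%, against 26.4% of all genes) and 1 rose (5.26%, against 21.4%). The medians were -2.53 on the first no.1 array and -0.99 on the second. Relative to the spike-ins the list median was 0.14 and no member was called lower. H2-K1, a classical class I heavy chain, gave 32390 and 33620 in control and 8543 and 14060 in no.1 (-3.004, SE 0.38, adjusted p = 0.00365). H2-D1 gave 11630 and 11250 against 3654 and 5133 (-2.81, SE 0.30, adjusted p = 0.00273). H2 genes are near-identical in parts, so their probes may read other members. Psmb9, a subunit of the immunoproteasome, gave 1254 and 1280 in control, 111 on the first no.1 array and 694 on the second (-3.60, SE 0.83, adjusted p = 0.0162), a call lost on averaging the control arrays (adjusted p = 0.0517). Against the spike-ins H2-K1, H2-D1 and Psmb9 were at -1.11, -0.92 and -1.71 and did not pass.

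Genes outside the interferon list also differed between the no.1 arrays. Some lists parted in the other direction. Lower on the first array were 2 of 54 mitosis genes, 0 of 40 DNA replication genes and 3 of 42 nuclear pore and RNA-binding genes, against 48.0% of all genes. Id2, an inhibitor of basic helix-loop-helix factors, gave 18.7 and 17.4 in control, 276 on the first no.1 array and 43.9 on the second, a difference of 2.48. Smoc2, a matricellular protein, gave 751 and 827, 7427 and 1952, and Pcsk6, a proprotein convertase, 121 and 115, 70.5 and 16.8. Acod1, which makes itaconate, gave 104 and 92.6, 5.21 and 59.2. Neither Id2 nor Smoc2 was called against control (adjusted p = 0.284 and 0.226). The hours in the names of the files differ between these arrays as well, and their part in the differences was not tested.

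Lysosomal genes were called lower more often than higher. Of 38 lysosomal genes 21 were lower (55.3%, against 26.4% of all genes) and 2 rose (5.26%, against 21.4%). Their median was -0.73, and 1.16 relative to the spike-ins. Grn, progranulin, gave 35990 and 43760 in control and 10710 and 10340 in no.1 (-3.33, SE 0.29, adjusted p = 0.00169), and was lower relative to the spike-ins as well (-1.44, adjusted p = 0.0017). Ctsk, a collagen-degrading cathepsin, went from 1118 and 1143 to 387 and 446 (-2.86, SE 0.31, adjusted p = 0.00271), and stood at -0.97 relative to the spike-ins, not called. Ids, a sulfatase of the lysosome, rose from 56.3 and 55.9 to 513 and 426 (1.65, SE 0.28, adjusted p = 0.00682).

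Glutathione, NRF2 and antioxidant genes had 25 of 42 members lower (59.5%, against 26.4% of all genes) and none higher (against 21.4%). Relative to the spike-ins 8 were lower (19.0%, against 1.93%). Gsta4, a transferase that clears lipid aldehydes, fell from 580 and 705 to 9.51 and 20.8 (-6.92, SE 0.47, adjusted p = 0.000856), Sod3, the superoxide dismutase of the extracellular space, from 4978 and 5136 to 117 and 256 (-6.28, SE 0.44, adjusted p = 0.00094), and Gstk1 from 186 and 195 to 24.5 and 27.5 (-4.29, SE 0.35, adjusted p = 0.00151). All 3 were called lower under both scalings.

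Glycolytic and hypoxia-inducible genes did not move as a block, with 12 of 37 lower (32.4%) and 4 higher. Ndufa4l2, a hypoxia-induced mitochondrial protein, fell from 1489 and 1568 to 8.01 and 36.3 (-7.90, SE 0.72, adjusted p = 0.00183), and Aldoc, aldolase C, from 216 and 235 to 27.3 and 30.2 (-4.39, SE 0.24, adjusted p = 0.000564), both also relative to the spike-ins. Egln3, an oxygen-sensing prolyl hydroxylase, rose from 17.6 and 19.8 to 358 and 271 (2.65, SE 0.33, adjusted p = 0.00346). Of 28 genes of the unfolded protein and integrated stress responses 10 were lower (35.7%) and 4 rose (14.3%), against 26.4% and 21.4% of all genes. Ddit3, the stress factor CHOP, gave 396 and 395 in control and 130 and 273 in no.1 (-2.48, SE 0.41, adjusted p = 0.00659), and Trib3, its target, 1990 and 2045 against 788 and 1573 (-2.27, SE 0.38, adjusted p = 0.00685), and relative to the spike-ins both were under 0 without passing (-0.59 and -0.38).

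Housekeeping complexes had fewer calls in 1 direction than all genes had. Of 39 proteasome and chaperonin genes 9 rose (23.1%, against 21.4% of all genes) and 3 were lower (7.69%, against 26.4%). None was called with the control arrays averaged. Of 49 respiratory chain subunits 17 were lower (34.7%, against 26.4%) and 4 rose (8.16%, against 21.4%). Their median was -0.53, which was 1.36 relative to the spike-ins and 0.13 with normexp background correction. Uqcrq, a subunit of complex III, gave 18200 and 18470 in control and 18180 and 14250 in no.1, both below control and the first close to it, and stood at -1.60 after it (adjusted p = 0.00649) and at 0.29 relative to the spike-ins. Of 16 circadian clock genes 4 were lower (25%, against 26.4% of all genes) and 1 rose (6.25%, against 21.4%). Dbp, an output factor of the clock, was at -2.09 (SE 0.19, adjusted p = 0.00191), and -0.20 relative to the spike-ins, not called.

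Signalling lists mixed both directions. Of 14 IGF ligands, receptors and binding proteins 7 were lower (50.0%, against 26.4% of all genes) and 3 rose (21.4%, the share of all genes). Relative to the spike-ins 5 of the 14 were lower, where 1.93% of all genes were. The binding protein genes Igfbp6 and Igfbp4 fell from 7405 and 7844 to 584 and 1062 (-4.69, SE 0.39, adjusted p = 0.00157) and from 938 and 997 to 228 and 170 (-3.71, SE 0.23, adjusted p = 0.00067). Igf2r, a receptor that clears IGF2, rose from 120.0 and 116 to 1279 and 1236 (2.00, SE 0.23, adjusted p = 0.00304). Of 31 TGF-beta, BMP and activin genes 6 rose (19.4%) and 6 were lower (19.4%), near the 21.4% and 26.4% of all genes. Tgfb2 gave 8.11 and 5.46 in control and 159 and 100.3 in no.1 (2.83, SE 0.29, adjusted p = 0.00236), its receptor gene Tgfbr1 9.08 and 7.75 against 144 and 91.5 (2.36, SE 0.28, adjusted p = 0.00319), and Fst, the activin antagonist follistatin, 28.6 and 27.5 against 734 and 484 (2.995, SE 0.54, adjusted p = 0.00805). Fst did not pass without no.1 array 1.

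Of 29 Wnt genes 10 were lower (34.5%) and 4 rose (13.8%), and 22 of the 29 were well above background on all 4 arrays. Wnt11, a ligand of the non-canonical pathway, fell from 15.8 and 16.7 to 7.49 and 6.64 (-2.62, SE 0.32, adjusted p = 0.00337), and by 0.72 relative to the spike-ins (adjusted p = 0.031). Ror2, a receptor of that pathway, was at -1.74 (adjusted p = 0.00289), and 0.15 relative to the spike-ins. Of 40 axon guidance genes 14 rose (35.0%) and 12 were lower (30.0%), against 21.4% and 26.4% of all genes, and with the control arrays averaged 6 rose and 6 were lower. On all 4 arrays 32 of the 40 were well above background. Sema3b and Sema7a, semaphorins, fell by 4.46 (SE 0.76, adjusted p = 0.00705) and 3.80 (SE 0.46, adjusted p = 0.00336), and Slit3, a secreted repellent, from 323 and 298 to 39.2 and 64.0 (-4.05, SE 0.33, adjusted p = 0.00151). With spike-in scaling Sema3b, Sema7a and Slit3 were lower too. Since tamoxifen is a ligand of estrogen receptors, 17 estrogen and aryl hydrocarbon receptor response genes were also counted, and 3 rose (17.6%) and 5 were lower (29.4%), close to all genes. Cyp1b1, a classic aryl hydrocarbon receptor target, rose from 14.3 and 17.3 to 524 and 321 (3.29, SE 0.26, adjusted p = 0.00133). Cyp1a1, Cyp1a2 and Pgr, other members of this list, were not well above background on any array and were not tested. Ccn5 and Igfbp4, at -5.41 and -3.71, were among its lower members. Activity of either receptor was not tested.

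**Figure D5:**
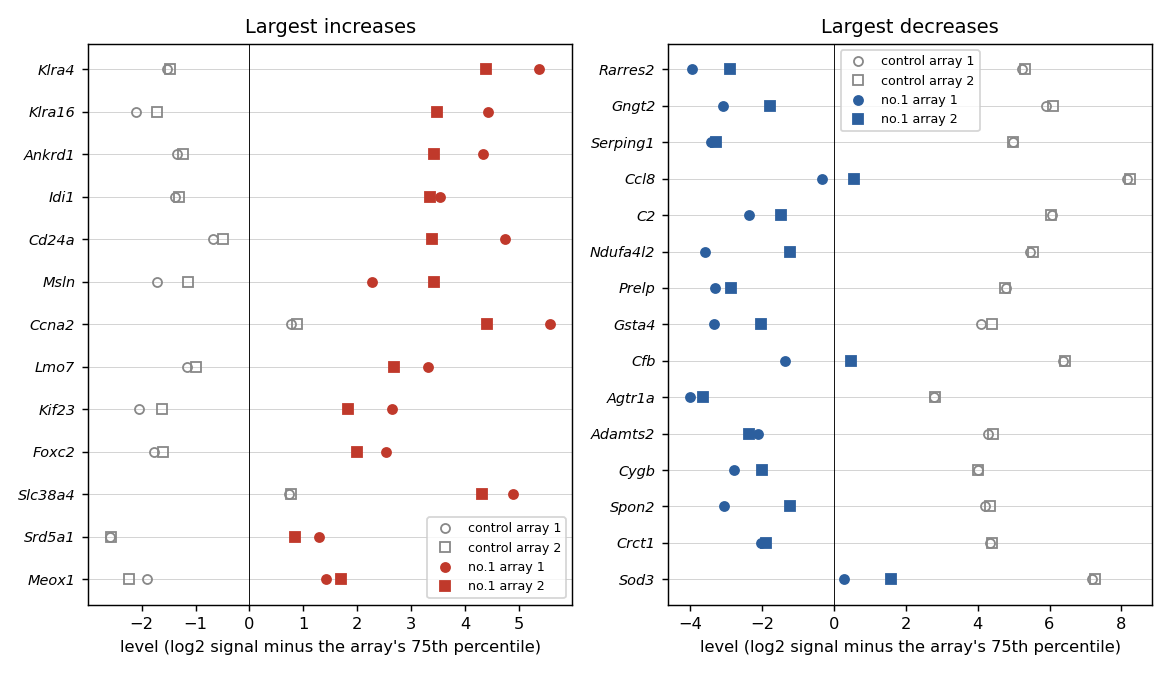
Level (x axis, log2 signal minus the 75th percentile of the array) on each control array (grey) and no.1 array (coloured) for 13 genes among the largest called increases (left) and the 15 largest decreases (right) of genes well above background on all 4 arrays. The groups do not overlap for any of the 28 genes, and the largest increase is that of Klra4 at 6.37 and the largest decrease that of Rarres2 at -8.70.

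The largest single rises belonged to no one list. Klra4 and Klra16, receptors of the Ly49 family of natural killer cells, gave 11.9 and 12.2 in control against 3936 and 1774 in no.1 (6.37, SE 0.34, adjusted p = 0.000497), and 7.89 and 10.3 against 2051 and 945 (5.86, SE 0.34, adjusted p = 0.000635). Their sequences are near-identical, so a probe may read another member. Of 15 lymphocyte and natural killer markers 3 were tested. Relative to the other genes of the array Cd3e (-1.53) and Cd4 (-0.98) were called lower and none was called higher. Relative to the spike-ins Cd4 (0.91) and Prf1 (1.51) were called higher, as were 81.7% of all genes, and Cd3e (0.36) was not called. The list's summed level was 6.01 and 5.81 in control and 2.85 and 2.76 in no.1. These sums are multiples of each array's own percentile, which was larger in no.1, and need not mean less signal. Cd24a, a small surface glycoprotein, rose from 21.4 and 23.9 to 2555 and 890 (4.65, SE 0.56, adjusted p = 0.00329), and Msln, mesothelin, from 10.4 and 15.4 to 465 and 908 (4.27, SE 0.41, adjusted p = 0.00205). Of 10 mesothelial markers on the array 4 were tested and 2 rose, while Wt1, Upk3b and Upk1b were not well above background. Transcription factors among the largest rises were Foxc2 (3.94, SE 0.65, adjusted p = 0.00648) and Meox1 (3.62, SE 0.22, adjusted p = 0.000638). Lmo7, a junction and actin protein, gave 15.2 and 17.0 against 952 and 542 (4.07, SE 0.27, adjusted p = 0.000799), Slc38a4, an amino acid transporter, 56.4 and 57.5 against 2843 and 1691 (3.85, SE 0.29, adjusted p = 0.0011), and Srd5a1, a steroid reductase, 5.68 and 5.71 against 236 and 152 (3.64, SE 0.22, adjusted p = 0.00067).

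Among the largest falls not yet described, Gngt2, a G protein gamma subunit, went from 2044 and 2318 to 11.2 and 24.8 (-8.44, SE 0.49, adjusted p = 0.000635). Agtr1a, an angiotensin receptor, fell from 236 and 236 to 5.97 and 6.83 (-6.62, SE 0.96, adjusted p = 0.00478), Cygb, a globin of fibroblasts, from 554 and 543 to 13.9 and 21.1 (-6.42, SE 0.40, adjusted p = 0.00069), and Crct1 from 696 and 714 to 23.3 and 22.8 (-6.35, SE 0.23, adjusted p = 0.000267). All 15 genes with the largest falls were called lower relative to the spike-ins and with the control arrays averaged.

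Some genes were measured in 1 group only, so that only a bound can be given. Both no.1 arrays and neither control array were well above background for 2671 genes, of which 1162 were called higher and 31 lower. The opposite held for 264 genes, of which 259 were called lower and 0 higher. The choice of these genes largely sets the direction of such calls, which also rest on signals below the flag, so they are no separate support. A bound sets the mean of the bright group against a floor, which on each array of the dim group is the probe's own signal or, if that is larger, the dimmest signal that counts as well above background. They hold for 75th-percentile scaling only. Thbs4, a thrombospondin of tendon and muscle, gave 2804 and 2781 in control and 5.45 and 5.59 in no.1 and was at least 1350-fold lower. Vit, the matrix protein vitrin, and Prg4, the lubricant lubricin, were at least 45.0-fold and 40.6-fold lower, from 83.8 and 79.7 and from 72.9 and 74.7, and Pkd1l2 at least 95.1-fold. On the higher side Klra7, another Ly49 receptor, gave 706 and 329 in no.1 against 1.15 and 4.18 and was at least 39.8-fold higher. Arhgap36 was at least 18.1-fold higher, with 361 and 132 in no.1, Optc at least 13.4-fold, with 195 and 135, and Map2, a microtubule protein of neurons, at least 12.3-fold, with 174 and 128.

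Cells that had left tamoxifen differed from control at fewer genes. In LH2 cKO_no.2 6515 genes were called against control (28.3%), 2789 higher and 3726 lower, but both comparisons share the control arrays. Tested directly, no.1 and no.2 differed at 0 of 23054 genes in limma, with 3825 at an unadjusted p under 0.05. Side by side, the log2 fold changes in no.1 and no.2 were -2.13 and -2.57 for Plod2, 4.06 and 2.93 for Kif23, 4.78 and 4.30 for Idi1, -8.70 and -7.08 for Rarres2, and -6.20 and -1.93 for Apod. The list median of mitosis genes was 2.52 in no.1 and 1.61 in no.2, that of cholesterol synthesis 1.70 and 2.12, and that of the interferon response -1.37 and 0.10. The interferon median in no.1 joins unlike arrays, with -2.92 on the first and 0.06, near the no.2 value, on the second. Apod also varied within groups, with signals of 38.3 and 361 in no.1 and 451 and 4370 in no.2.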

How the data were processed

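RNA from mouse tail fibroblasts in culture was labelled with Cy3 and hybridised to 6 arrays, 2 a group. Per the file headers, the authors' deposited values are spot intensities made by Agilent Feature Extraction 12.1.1.1, background-subtracted within each array and not scaled between arrays, whereas version 9.5.1.1 stands in the submitters' processing notes. A deposited value table of the same arrays holds intensities that are quantile-normalized on a linear scale, and the sources used here do not say how it was made.

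From these, flagged outlier spots were left out (6 probes with no other spot dropped), spots of a probe were averaged, and log2 signals were taken relative to each array's 75th percentile over non-control probes. For each gene the probe with the highest mean signal was used. Genes that both arrays of any group measured well above background were fitted with limma 3.58.1 (lmFit and eBayes, R 4.3.3), 1 mean a group over all 6 arrays, 3 residual degrees of freedom, with Benjamini-Hochberg adjustment over 23054 genes. Each gene's SE comes from this fit. The script was tested on simulated data. E1A scaling used the median of 10 spike-in probes. Gene symbols came from the files and RefSeq's GRCm38.p6 tables, used for names and promoters only, since the file headers name mm9. Of 56599 probes 58.3% had a symbol.

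The members and the lists were chosen with earlier results of these data known. Named were the lysyl hydroxylases, members of the crosslinking and filopodia lists, up to 4 called members of each other list with the largest changes and the largest opposite one, the 15 largest changes each way, the 8 largest differences each way between the no.1 arrays, and up to 5 bounds each way. Bgn, Col1a1, Col1a2, Col3a1 and the cell type markers fall outside this rule and were chosen after their values were seen. Alternatives were other scalings, normexp background correction (offset 50, on median signals, because the mean signal foreseen for it is not used here), other filters, other probe summaries, the value table, the replicate number as a block, averaged control arrays and leaving out each array. Some genes that this rule names are not reported here.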

Additional observations from a re-analysis of the deposited data

How the results depend on the processing

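Counts of called genes moved most with the scaling. They were 7573 higher and 3294 lower relative to the median probe, 18846 and 446 relative to the spike-ins, 10334 lower with normexp, 19763 lower among 45611 genes without a filter on dim probes, and 2262 and 2589 with the control arrays averaged. Leaving out 1 array gave 2268 to 4058 higher and 2732 to 4988 lower, and an arm left with 1 array was assumed to vary like the other groups. Quantile normalization, the value table, the stricter filter, the 4 arrays alone and the mean over probes kept both counts within 1.5 times, but quantile normalization (5984 higher, 5031 lower) and the value table (5969, 5004) turned their order. Plod2 stayed lower and called under all alternatives (-0.96 to -2.49) except relative to the spike-ins (-0.24).

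Relative to the spike-ins these genes changed sign: Capzb 1.21, Cdc42ep2 0.57, Cdc42ep4 1.30, Colgalt1 1.15, Crtap 1.16, Ebp 1.15, Fkbp10 1.22, Limk1 0.52, Loxl1 0.80, Mylk 0.084, P3h3 1.13, P3h4 0.24, P4hb 1.20, Plod1 0.54, Plod3 0.30, Ppib 0.96, Rhoj 0.92, Ror2 0.15, S100a4 0.15, Serpinh1 1.19, Srgap2 0.95 and Uqcrq 0.29. With normexp Capzb (0.0014), Cdc42ep4 (0.0065), Fkbp10 (0.057) and Serpinh1 (0.035) did. The cause was not tested. Of 163 named genes 26 lost the call with the control arrays averaged, and 24 without no.1 array 1. Without that array 6 of 36 list medians changed sign.

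With the replicate number as a block 4758 genes were called higher and 5819 lower, and 9 of 163 named genes lost the call. The labels state no pairing by number. Deviations of same-numbered arrays correlated at -0.04 (control with no.1), -0.02 (control with no.2) and 0.17 (no.1 with no.2). With 2 arrays a group these values do not decide whether the arrays were paired. Dim probes have only bounds.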
